A study of Rattus norvegicus with 24 samples.

Results

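Liver constructs sampled 2 days after seeding were compared with freshly isolated rat hepatocytes to describe how gene expression differed after the first days on a decellularized scaffold. The samples were chosen by their sample titles: 4 hepatocyte preparations and 4 day 2 constructs, which make up 8 of the 19 samples and 10 of the 24 arrays of the series. Of the day 2 constructs, 2 had been measured on duplicate arrays, which were averaged. The other groups of the series were cadaveric liver and constructs at day 15 and day 28. RNA was measured on Illumina RatRef-12 BeadChips, and all values below are log2 intensities unless a fold change is named.

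Both groups came from adult Sprague Dawley rats. The isolated hepatocytes were obtained by perfusing the liver with collagenase and separating viable cells by Percoll centrifugation, and their RNA was taken at once. The day 2 constructs were caudate lobes of rat liver, stripped of their cells with detergent, into which cells isolated in the same way were perfused through the portal vein. They were then perfused in a bioreactor with Williams' Medium E containing fetal bovine serum, insulin and dexamethasone, a synthetic glucocorticoid. No drug or gene was tested, and no allele or strain differed between the groups. The RNA of the constructs came from biopsies, which could hold any cell that the isolation carried over. The sources used here gave no sex of the rats and no age for each sample. The labels do not state whether the samples of a group came from different rats. A p-value here therefore reflects only how such samples vary among themselves, which may be technical in part. For the adjusted p-values, this spread was taken from all 5 groups of the series.

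Hepatocytes are the epithelial cells that carry out most of the metabolic work of the liver: they secrete plasma proteins, take up bile acids and drugs from the blood, oxidize and conjugate foreign compounds, and make glucose and urea. Collagenase digestion separates them from their neighbours and their matrix, and immediate early genes are known to be induced during such isolations. Hepatocytes in culture are known to lose much of their specialized gene expression and to build up an actin cytoskeleton.

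Between 42.1% and 44.2% of the probes were detected on the hepatocyte arrays and between 45.4% and 47.04% on the day 2 arrays. Duplicate arrays of a construct differed by a root mean square of 0.191 to 0.210 over the 7879 named probes that passed the detection filter. Different day 2 constructs differed by 0.259 to 0.384, different hepatocyte preparations by 0.350 to 0.418, and arrays of the 2 groups by 1.10 to 1.25. No pair of hepatocyte and day 2 arrays was as similar as any pair of arrays within a group. The brightest probe read 14.96 on every array after quantile normalization, so values near this ceiling cannot rise far but can fall. Values near 4.5 lie in the background.

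Of 7710 genes tested, 5136 (66.6%) differed between the groups, with 2896 (37.6%) higher and 2240 (29.1%) lower in the constructs. A difference of at least 2-fold was found for 933 genes (12.1%) that were higher and 942 genes (12.2%) that were lower, and one of at least 4-fold for 207 higher and 364 lower genes. The 4 samples of one group did not overlap with the 4 of the other for 4572 genes (59.3%). Of the genes called higher, 330 were detected on no hepatocyte array, and of those called lower, 125 on no day 2 array. These passed the detection filter only through the group where they were higher, so they could hardly be called the other way. The median log2 difference over all genes was 0.07. The counts of each list below are to be read beside the shares over all genes, 37.6% higher and 29.1% lower. Against this background, genes of liver metabolism and plasma protein secretion were mostly lower on day 2, and genes of the cytoskeleton and of ribosome assembly mostly higher, as the following paragraphs describe list by list. Differences are from a limma fit to the 5 groups, and each adjusted p was corrected over the 7710 genes (Benjamini-Hochberg).

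**Figure D1:**
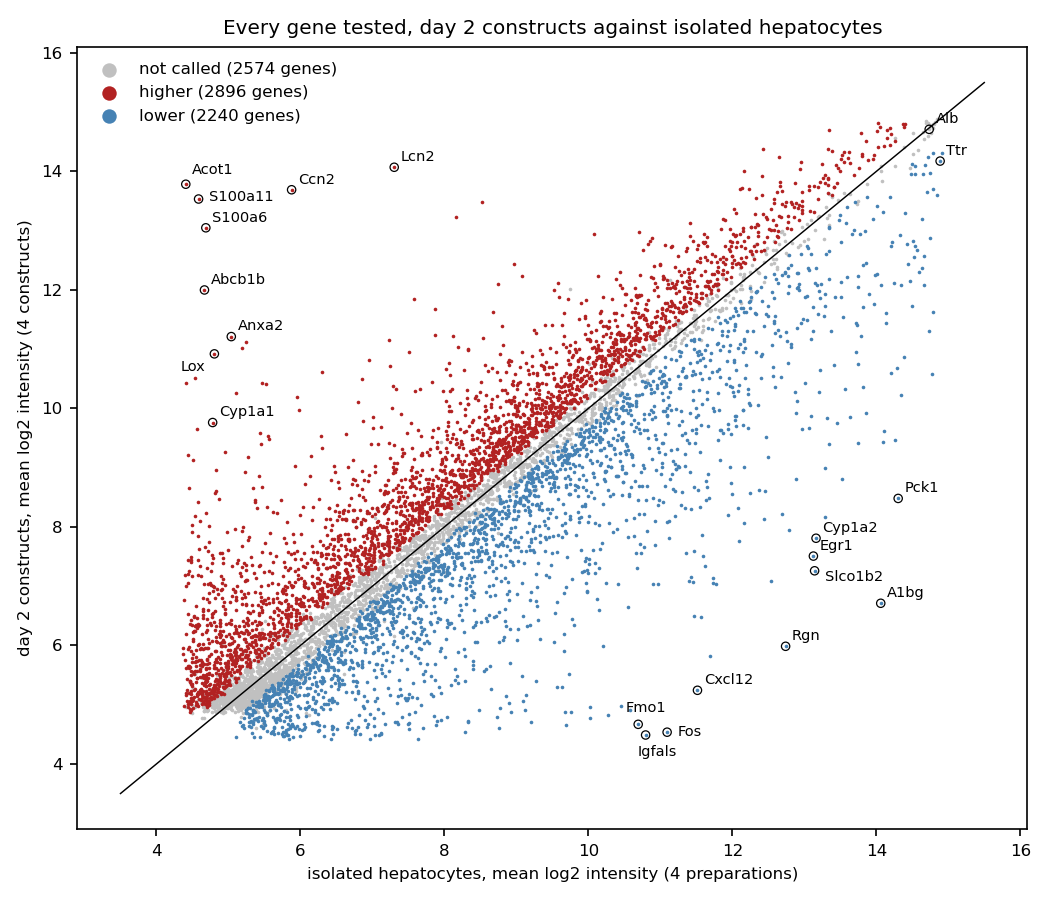
Mean log2 intensity of each of the 7710 genes tested in the 4 hepatocyte preparations (horizontal axis) and the 4 day 2 constructs (vertical axis), coloured by whether the gene was called higher (2896 genes), lower (2240 genes) or neither. The line marks equal values, and albumin lies on it at the bright end while Acot1, S100a11 and Ccn2 lie far above it and A1bg, Fos and Rgn far below.

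Albumin, the main plasma protein made by hepatocytes, read 14.79, 14.71, 14.71 and 14.73 in the preparations and 14.68, 14.76, 14.61 and 14.79 in the constructs. These values are from the brighter of 2 probes kept for albumin, and the dimmer probe is not given here. The groups overlapped, and the difference of -0.02 had an exact two-sided permutation p of 0.657, where the smallest p possible with 4 against 4 samples is 0.0286. Its brightness ranked between 13 and 39 among all probes over the arrays, close to the ceiling. Of the 48 genes within 0.5 of the ceiling in hepatocytes, where a rise has little room, 0 were called higher, 29 lower and 19 neither. Transferrin (Tf), the iron carrier of plasma, haptoglobin (Hp), which binds free hemoglobin, apolipoprotein E (Apoe) and the protease inhibitor Serpina1 were likewise not called, with differences between -0.12 and 0.03.

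Most other secreted proteins were lower in the constructs. Of 43 complement and coagulation genes tested, 38 were lower and 2 higher, with a median difference of -1.68. Plasminogen (Plg), the precursor of the clot-dissolving protease, read 14.32, 14.22, 14.33 and 14.30 in hepatocytes and 10.04, 10.55, 10.64 and 11.50 in constructs, a difference of -3.61 (SE 0.21, adjusted p = 6.40e-11) or 12.2-fold. All constructs lay below all preparations, and they spread over a wider range. The thrombin inhibitor Serpind1 fell 22.4-fold, plasma prekallikrein (Klkb1) 17.1-fold, complement C4b 7.53-fold and coagulation factor XI (F11) 7.20-fold. Fibrinogen beta chain (Fgb) fell 2.36-fold from near the ceiling. Transthyretin (Ttr), which carries thyroid hormone, and fetuin A (Ahsg) fell 1.64-fold and 1.72-fold from levels equally near it.

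Apolipoproteins and lipoprotein-handling genes moved the same way, with 16 of 20 lower, 0 higher and a median of -1.68. Apof, a lipid transfer inhibitor, fell 19.6-fold, Lcat, which esterifies plasma cholesterol, 7.96-fold, hepatic lipase (Lipc) 6.46-fold and Apoc2, the activator of lipoprotein lipase, 5.92-fold. The acute phase proteins, which the liver secretes in inflammation, were divided: 19 of 33 were lower and 6 higher. Lipocalin 2 (Lcn2), which binds bacterial iron carriers, read 7.79, 6.50, 8.05 and 6.87 in hepatocytes and 14.57, 14.46, 13.75 and 13.49 in constructs. Every construct was above every preparation, by 6.77 on the mean (SE 0.44, adjusted p = 2.79e-10), or 109-fold. Alpha-2-macroglobulin (A2m), a protease inhibitor and acute phase protein of the rat, was 31.3-fold higher and was chosen after its values were seen. On the other side, mannose-binding lectin (Mbl1) fell 18.5-fold and Itih4 3.93-fold.

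Several carriers and receptors of hormones fell. Igfals, the subunit that holds insulin-like growth factors in the blood, read 10.89, 10.81, 10.71 and 10.78 in hepatocytes and 4.49, 4.48, 4.50 and 4.48 in constructs, where no array detected it. It was therefore at least 54.5-fold lower, where the day 2 value was set to the lowest signal detected on each array and averaged over samples. "At least" is used in this sense throughout, also where only some arrays detected a gene and each lower value was raised to that signal. The corticosteroid carrier Serpina6 fell 27.8-fold and the growth hormone receptor (Ghr) 7.11-fold. A1bg, a plasma glycoprotein, had the largest fitted decrease, from 14.45, 13.81, 13.95 and 14.03 to 5.94, 7.37, 6.55 and 6.99, which is 163-fold (SE 0.69 on the log2 scale, adjusted p = 3.49e-08). A list of liver genes known to differ between female and male rats, to which it belongs, had 13 of 14 members lower and 0 higher, with a median of -2.34 (-2.31 with undetected members at their bound).

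Transcription factors that maintain the hepatocyte programme were lower by smaller amounts. In this list, which also holds nuclear receptors, 29 of 40 genes were lower and 1 higher, with a median of -0.75. Hnf4a, a central regulator of liver genes, read 7.62, 8.04, 7.46 and 7.69 in hepatocytes and 6.67, 7.06, 6.45 and 6.72 in constructs, 1.96-fold lower (adjusted p = 5.56e-05). Cebpa, which controls metabolic genes of liver and fat, fell 5.37-fold, Foxa1, a factor that opens chromatin, 6.51-fold and Onecut1 4.07-fold. None of these 4 overlapped between the groups, as was so for 59.3% of all genes tested. The bile acid receptor Nr1h4 fell 6.62-fold, and Nr0b2, the repressor that it induces, fell at least 15.54-fold, to a level that 3 of 6 day 2 arrays detected. The xenobiotic receptor Nr1i3 differed by -0.11 and was not called. Nr1d1, a clock gene, was 7.94-fold lower, but hepatocyte preparations ranged from 6.75 to 9.64. Of 13 clock genes, 5 were lower and 1 higher, beside 29.1% lower and 37.6% higher over all genes tested.

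Drug-metabolizing enzymes fell broadly, with a few exceptions in opposite directions within the same family. Of 38 cytochrome P450 hydroxylases of drugs and steroids, 25 were lower and 7 higher, with a median of -1.59. Cyp1a2, which oxidizes caffeine and aromatic amines, read 13.36, 13.50, 12.75 and 13.05 in hepatocytes and 7.11, 7.75, 7.91 and 8.47 in constructs, a difference of -5.35 (SE 0.32, adjusted p = 8.66e-11) or 40.9-fold. Its neighbour in the family, Cyp1a1, an enzyme induced through the aryl hydrocarbon receptor, read 5.40, 4.58, 4.71 and 4.43 in hepatocytes and 10.03, 10.04, 9.52 and 9.47 in constructs, a difference of 4.98 (SE 0.39, adjusted p = 2.65e-09). Only 1 of 4 hepatocyte arrays detected it, so that it was at least 23.3-fold higher. Both genes separated the groups fully, and in opposite directions. The receptor itself (Ahr) differed by 0.11 and was not called, and its partner Arnt was 1.41-fold higher (adjusted p = 0.0150), a call that was lost without hepatocyte preparation 2 (adjusted p = 0.0626). Of 8 members of the aryl hydrocarbon receptor list, 4 were higher and 2 lower.

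Other P450 genes that fell included Cyp2b3 (11.2-fold), Cyp2e1, which oxidizes ethanol and small solvents (10.7-fold), Cyp4f1, a fatty acid hydroxylase (8.90-fold), Cyp2t1 (8.66-fold) and Cyp2c13 (7.53-fold). Cyp3a2, a steroid hydroxylase, was low and variable in both groups, between 5.03 and 6.87 in hepatocytes and between 5.18 and 6.93 in constructs. Fmo1, a flavin-containing drug oxidase, read 10.71, 10.71, 10.66 and 10.69 in hepatocytes and was detected on no day 2 array, at least 50.7-fold lower (adjusted p = 2.30e-15). The aldehyde oxidase Aox3, detected on 2 of 6 day 2 arrays, fell at least 40.9-fold. Of 37 carboxylesterases, aldo-keto reductases and related enzymes, 25 were lower and 7 higher, with a median of -1.23. Hsd17b2, which inactivates estradiol and testosterone, fell 43.4-fold.

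Conjugating enzymes were split, with 22 of 41 lower and 10 higher and a median of -0.44, beside 29.1% lower and 37.6% higher over all genes. The sulfotransferases Sult1c3 and Sult1c2, detected on 1 and 3 of 6 day 2 arrays, fell at least 37-fold and 23.8-fold, and Nat8, which completes mercapturate formation, at least 13.3-fold. The placental form of glutathione S-transferase (Gstp1), scarce in normal rat hepatocytes, read 7.84, 7.48, 6.74 and 7.26 in hepatocytes and 9.26, 10.53, 10.85 and 10.69 in constructs, 8.0-fold higher (adjusted p = 1.42e-07). The lowest construct was above the highest preparation. Gstm5 rose 4.96-fold and the glucuronosyltransferase Ugt1a6 2.89-fold. Members of the sulfotransferase, glutathione S-transferase, UGT1 and Cyp2 families are similar in sequence, and the probes may not tell them apart completely.

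The Gstp1 promoter is shown because the gene rose while 22 of 41 members of its class fell. It was searched for the AP-1 element, the binding site of Fos and Jun proteins. Of the genes for these proteins, Fos was at least 67.0-fold and Junb 22.1-fold lower in the constructs, as described below. Whether a match acts on the gene in these cells was not tested. The 250 bases before the start site are given 5′ to 3′ on the strand of the gene, from RefSeq on GRCr8 (chr1:210769706-210769955, minus strand). The capitals mark the match to TGANTCA, searched on both strands, which begins 61 bases before the start site and which 2122 of 33469 promoters of this length (6.34%) hold.

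Gstp1: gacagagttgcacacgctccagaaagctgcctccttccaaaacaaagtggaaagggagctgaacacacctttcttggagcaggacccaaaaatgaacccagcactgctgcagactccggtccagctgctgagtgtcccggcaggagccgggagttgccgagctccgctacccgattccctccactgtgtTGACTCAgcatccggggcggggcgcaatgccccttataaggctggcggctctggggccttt

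Transporters that bring bile acids, organic ions and sugars into hepatocytes were lower in 14 of 17 cases and higher in 1, with a median of -2.60, the lowest of the 50 lists. Slco1b2, the organic anion carrier of rodent liver, read 13.02, 13.36, 12.99 and 13.20 in hepatocytes and 7.24, 7.18, 7.22 and 7.39 in constructs, a difference of -5.88 (SE 0.18, adjusted p = 1.59e-14) or 59.0-fold. The bile acid carrier Slc10a1 fell 12.2-fold. Export pumps of the ABC family showed no common direction, with 8 of 21 lower and 5 higher. Abcb1b, a rodent multidrug pump, was detected on no hepatocyte array, at 4.48, 4.52, 4.90 and 4.76, and read 12.27, 11.69, 12.30 and 11.74 in constructs. That was at least 114-fold (adjusted p = 9.47e-12), and Abca5, a lysosomal member of the family, was 7.56-fold higher. The sterol exporter Abcg5 fell 8.13-fold and Abcc6 10.4-fold.

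Amino acid catabolism was lower almost throughout, with 34 of 41 genes lower, 0 higher and a median of -1.71. Amdhd1, an enzyme of histidine breakdown, fell 59.0-fold, Bhmt, which remethylates homocysteine, 25.5-fold, Dpys, a pyrimidine-degrading enzyme, 19.3-fold, Agxt, which detoxifies glyoxylate, 11-fold and the asparaginase Aspg 10.0-fold. Tyrosine aminotransferase (Tat), known to be induced by glucocorticoids, read 13.99, 13.47, 13.55 and 13.95 in hepatocytes and 13.34, 13.47, 13.51 and 13.47 in constructs, an overlap, and was not called. Of 11 urea cycle genes, 10 were lower and 1 higher, over a wide range of sizes. Ornithine transcarbamylase (Otc) read 13.74, 13.61, 13.55 and 13.67 in hepatocytes and 9.58, 10.68, 9.39 and 9.79 in constructs, 13.7-fold lower. Cps1, the entry enzyme, fell 3.31-fold and Ass1 1.51-fold. Arginase (Arg1), which releases urea, was 1.27-fold higher (adjusted p = 0.0120), a call lost without day 2 construct 2 (adjusted p = 0.0507).

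Genes of glucose metabolism moved in both directions. Of 19 genes of gluconeogenesis and glycogen, 12 were lower and 3 higher, with a median of -0.96. Cytosolic phosphoenolpyruvate carboxykinase (Pck1), the regulated step of glucose synthesis, read 14.28, 14.37, 14.25 and 14.32 in hepatocytes and 8.66, 7.84, 8.70 and 8.73 in constructs, 56.6-fold lower (SE 0.25 on the log2 scale, adjusted p = 1.00e-12). Its mitochondrial counterpart Pck2 read 7.02, 7.46, 7.33 and 7.13 in hepatocytes and 9.48, 9.58, 9.27 and 9.36 in constructs, 4.55-fold higher (adjusted p = 6.00e-11). Both separated the groups, in opposite directions. Glucose-6-phosphatase (G6pc1) fell 17.4-fold, pyruvate carboxylase (Pc) 5.54-fold and liver glycogen phosphorylase (Pygl) 4.41-fold. Of 26 genes of glycolysis and the hypoxia response, 13 were higher and 1 lower, with a median of 0.62 (0.49 with undetected members at their bound). Aldolase A (Aldoa), the muscle-type isoform, rose 3.64-fold, adrenomedullin (Adm), a hypoxia-induced peptide, at least 3.09-fold and Gapdh 1.53-fold.

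Lipid metabolism held the largest single increase. Acot1, a cytosolic enzyme that splits acyl-CoA and a known target of PPAR alpha, read 4.37, 4.55, 4.36 and 4.34 in hepatocytes, where no array detected it, and 14.05, 13.57, 14.00 and 13.51 in constructs. It was at least 392-fold higher (SE 0.22 on the log2 scale, adjusted p = 2.38e-16). The mitochondrial relative Acot2 rose 8.11-fold, with similar sequence to Acot1 as a limit, and Eci1, an enzyme of unsaturated fatty acid oxidation, 3.87-fold. Fatty acid oxidation and PPAR alpha targets as a list were divided, 19 of 43 higher and 15 lower. Both shares lay near those over all genes tested, 37.6% and 29.1%. Ppara itself differed by -0.12 and was not called. Bdh1, which makes the ketone body hydroxybutyrate, fell 26.6-fold and Acsl5, an acyl-CoA synthetase, 4.95-fold.

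Peroxisomal enzymes were lower in 24 of 33 cases and higher in 5, with a median of -1.04, and catalase (Cat) fell 3.52-fold. Bile acid synthesis was lower in 13 of 16 cases and higher in 1, with a median of -2.0. Its sterol hydroxylase Cyp8b1 fell 13.5-fold and Amacr, which inverts side chains of bile acid precursors, 10.9-fold. In sterol synthesis, 15 of 20 genes were lower and 0 higher, Tm7sf2 by 5.83-fold and Cyp51 by 2.70-fold. Fatty acid synthesis was mixed, 11 of 21 lower and 6 higher. The desaturase Fads2 fell 9.34-fold and the elongase Elovl5 8.45-fold, whereas Cidea, a lipid droplet protein, rose 10.8-fold. Regucalcin (Rgn), an enzyme of vitamin C synthesis in the rat, read 12.75, 12.87, 12.71 and 12.63 in hepatocytes and 5.64, 6.67, 5.80 and 5.82 in constructs, 108-fold lower (adjusted p = 1.93e-14).

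**Figure D2:**
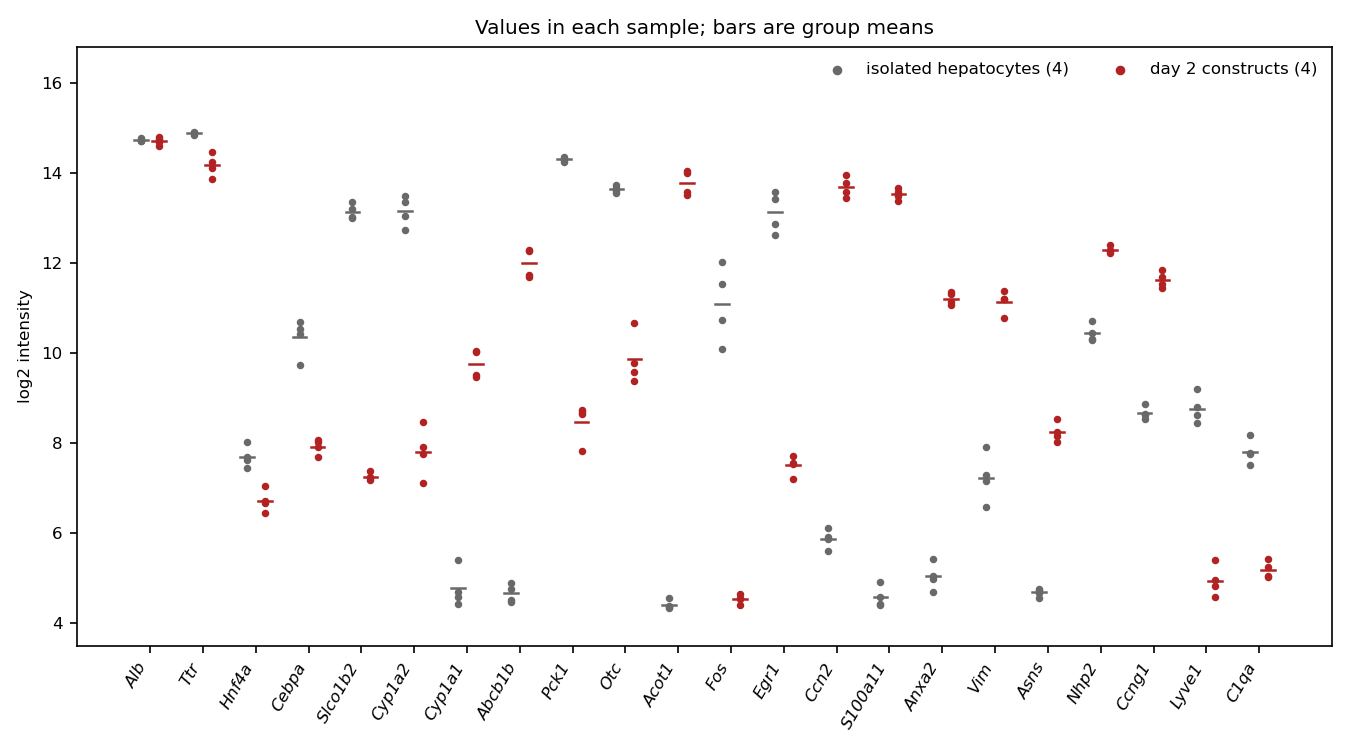
Log2 intensity of 22 genes in each of the 4 hepatocyte preparations and 4 day 2 constructs, with bars at the group means. Albumin overlaps between the groups, while Cyp1a2 is lower in the constructs (means of 13.16 and 7.81) and Cyp1a1 higher (4.78, mostly undetected, and 9.76).

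Immediate early genes, which respond within minutes to injury or growth factors, were high in the freshly isolated cells and low in the constructs, with 24 of 29 lower, 2 higher and a median of -1.42. Fos, a subunit of the AP-1 transcription factor, read 11.53, 10.09, 10.73 and 12.02 in hepatocytes and 4.54, 4.40, 4.65 and 4.55 in constructs, where no array detected it. It was at least 67.0-fold lower (SE 0.40 on the log2 scale, adjusted p = 8.98e-11). Egr1, a zinc finger transcription factor, read 13.42, 12.63, 12.88 and 13.58 in hepatocytes and 7.54, 7.71, 7.57 and 7.21 in constructs, 49.1-fold lower (adjusted p = 3.31e-11). Gadd45g, a stress gene, fell 25.6-fold, Ier2 13.9-fold and Zfp36, which destabilizes cytokine mRNAs, 13-fold. Junb, a partner of Fos, fell 22.1-fold and the stress cytokine Gdf15 35-fold, and these last 2 were chosen after their values were seen. Hepatocyte preparation 2 had the lowest value of the 4 for Fos, Egr1, Ier2, Zfp36, Junb and Gdf15, and every construct was still below it. Nr4a1, a nuclear receptor of the same kind of response, was near background in both groups and not called.

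In cadaveric liver, Fos read 6.31 ± 1.02 (SD, n = 4) and Egr1 8.73 ± 0.89, beside 11.09 ± 0.86 and 13.13 ± 0.45 in hepatocytes and 4.54 ± 0.10 and 7.51 ± 0.21 in day 2 constructs. Ier2 read 8.33 ± 0.43, 11.35 ± 0.48 and 7.55 ± 0.13 in the same order, Junb 10.14 ± 0.56, 12.69 ± 0.45 and 8.22 ± 0.52, and Gdf15 9.89 ± 0.83, 13.29 ± 0.44 and 8.16 ± 0.26. For each of these 5 genes the mean was highest in the isolated cells and lowest in the constructs.

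The promoters of Egr1 and Ier2 are shown because their genes fell together, and because sites for serum response factor and for cyclic AMP response element binding protein are known to drive immediate early genes. Each line gives the 250 bases before the start site, 5′ to 3′, from RefSeq on GRCr8, with Egr1 at chr18:26736828-26737077 and Ier2 at chr19:40399123-40399372, both on the plus strand. In Egr1 the capitals mark 2 serum response elements of the CArG box type (CC, then 6 letters that are A or T, then GG), which begin 105 and 83 bases before the start site. Of 33469 promoters of this length, 501 (1.5%) hold at least 1. In Ier2 they mark the cyclic AMP response element TGACGTCA, 66 bases before the start site, held by 531 (1.59%). Both strands were searched. Egr1 held no TGACGTCA and Ier2 no CArG box, so these promoters shared neither motif. Zfp36 held 1 CArG box in this window, and Gadd45g and Junb held neither motif. Fos was not in the promoter set that was searched. Whether any match acts on its gene in these cells was not tested.

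Egr1: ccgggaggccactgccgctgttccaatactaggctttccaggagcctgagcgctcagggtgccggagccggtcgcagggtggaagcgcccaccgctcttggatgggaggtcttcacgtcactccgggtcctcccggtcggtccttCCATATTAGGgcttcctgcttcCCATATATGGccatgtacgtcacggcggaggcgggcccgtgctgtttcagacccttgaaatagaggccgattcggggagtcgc

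Ier2: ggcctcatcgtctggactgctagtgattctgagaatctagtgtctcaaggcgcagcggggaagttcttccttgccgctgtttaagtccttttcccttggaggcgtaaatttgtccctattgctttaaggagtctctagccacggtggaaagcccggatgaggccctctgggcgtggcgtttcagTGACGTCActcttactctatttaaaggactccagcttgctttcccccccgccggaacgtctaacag

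Of the 2 members of the list that were higher, Ccn2 stood out. Ccn2, a secreted matricellular protein that YAP and TGF-beta signalling are known to induce, read 5.60, 6.11, 5.92 and 5.88 in hepatocytes and 13.58, 13.44, 13.79 and 13.96 in constructs, 225-fold higher (SE 0.18 on the log2 scale, adjusted p = 2.19e-16). The spread within each group was small beside this difference.

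Among 36 chemokine, cytokine and NF-kappaB genes, 22 were lower and 9 higher, with a median of -1.01 (-0.77 with undetected members at their bound). Cxcl12, a chemokine that holds blood progenitors and lymphocytes in tissues, read 11.55, 11.56, 11.30 and 11.65 in hepatocytes and 5.03, 5.63, 5.23 and 5.08 in constructs, 77.3-fold lower (adjusted p = 5.15e-09). Cxcl16 moved the other way, from 5.17, 6.04, 5.19 and 5.66 to 10.95, 10.70, 10.08 and 9.93, 29.9-fold higher (adjusted p = 1.08e-11). The interleukin 1 decoy receptor Il1r2 was at least 16.5-fold higher, and the chemokine Ccl6 at least 9.57-fold lower. Interferon response genes were lower in 19 of 33 cases and higher in 0, with a median of -0.70, and the interferon-inducible GTPase Ifi47 fell by 4.32 on the log2 scale. Markers of macrophages moved with these lists, as given below, and their part in the result was not tested.

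Calcium-binding S100 proteins, annexins and galectins held several of the largest increases, although the list as a whole was mixed: 13 of 25 were higher and 5 lower, with a median of 0.23. S100a11 read 4.44, 4.91, 4.41 and 4.59 in hepatocytes, detected on no array, and 13.48, 13.39, 13.59 and 13.68 in constructs, at least 329-fold higher (adjusted p = 1.86e-17). S100a6 was at least 235-fold higher and annexin A2 (Anxa2), a membrane-binding protein that pairs with an S100 protein and was detected on 1 of 4 hepatocyte arrays, at least 63.7-fold. Annexin A5 (Anxa5) was at least 8.06-fold higher and galectin 3 (Lgals3), a lectin of stressed epithelium and macrophages, 33.5-fold. All of these separated the groups without overlap, as did 59.3% of all genes tested. S100a11, S100a6, Anxa2 and Anxa5 passed the detection filter only through the day 2 arrays. They could come out higher or uncalled, but hardly lower.

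Actin cytoskeleton genes rose in 25 of 36 cases and fell in 3, with a median of 0.80 (0.67 with undetected members at their bound). The actin-binding protein Tagln2 rose 14.0-fold, ezrin (Ezr), which ties actin to the membrane, at least 2.91-fold (1 of 4 hepatocyte arrays), cofilin (Cfl1), which severs filaments, 3.03-fold, Arpc1b, a subunit of the branching complex, 2.98-fold and profilin (Pfn1), which supplies monomers, 2.27-fold. Beta-actin (Actb) was 1.55-fold higher and filamin A (Flna), a cross-linker, 17.7-fold, both chosen after their values were seen. Tubulin and microtubule genes were higher in 8 of 15 cases and lower in 1, Tubb6 by 16-fold.

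Of 27 keratin, intermediate filament and junction genes, 7 were higher and 11 lower. Vimentin (Vim), an intermediate filament of mesenchymal and cultured cells, read 6.58, 7.92, 7.16 and 7.29 in hepatocytes and 11.21, 10.79, 11.21 and 11.38 in constructs, 15.0-fold higher (adjusted p = 1.05e-09). Keratin 8 (Krt8), the normal filament of hepatocytes, rose 2.86-fold. Among those that fell were the tight junction protein claudin 2 (Cldn2, 4.88-fold), the connexin Gjb1 (4.35-fold) and the adhesion molecule Ceacam1 (3.13-fold). Nefl, a neurofilament subunit, was at least 38.1-fold higher, and Basp1, a membrane-anchored protein first known from brain and detected on 2 of 4 hepatocyte arrays, at least 52.7-fold.

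Matrix and matrix-receptor genes showed no shared direction. Of 31 collagen, protease and matricellular genes, 8 were higher and 13 lower, and of 22 integrin, laminin and receptor genes, 8 were higher and 4 lower. Among all genes tested, 37.6% were higher and 29.1% lower. Lysyl oxidase (Lox), which cross-links collagen, read 4.53, 5.15, 4.73 and 4.80 in hepatocytes, detected on no array, and 10.59, 10.64, 10.86 and 11.60 in constructs, at least 53.8-fold higher (adjusted p = 2.57e-08). The laminin chain Lamc1 rose 8.61-fold, integrin beta 1 (Itgb1) 2.81-fold and the growth factor Tgfb2 at least 4.84-fold. Fibrillar collagens did not follow: Col1a2 read 7.82, 8.33, 7.66 and 7.67 in hepatocytes and 7.35, 7.30, 5.38 and 6.25 in constructs, 2.46-fold lower (adjusted p = 0.0458). This call was lost without day 2 construct 3 (adjusted p = 0.170), among other settings, and Col3a1 was near background (adjusted p = 0.0318, and 0.0699 without hepatocyte preparation 2). Other genes among the largest increases were Defb1, an antimicrobial peptide of epithelia (at least 40.7-fold), and Cdr2, a cytoplasmic protein first known as an antigen in cerebellar degeneration (at least 22.3-fold).

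Genes of ribosome assembly rose nearly throughout, by small amounts. Of 55 ribosome biogenesis and nucleolar genes, 48 were higher and 0 lower, with a median of 0.84. Nhp2, a protein of the particles that modify ribosomal RNA, read 10.30, 10.71, 10.46 and 10.30 in hepatocytes and 12.22, 12.27, 12.41 and 12.30 in constructs, 3.62-fold higher (SE 0.10 on the log2 scale, adjusted p = 2.55e-11). Rrp15 rose 2.97-fold and Nop16 2.63-fold. Of 57 cytosolic ribosomal proteins, 52 were higher and 2 lower, with a median of 0.63, Rpl13 by 2.28-fold and Rplp2, detected on 1 of 4 hepatocyte arrays, by at least 3.21-fold. Ribosomal protein genes have many near-identical processed copies, which a probe may not tell apart. Splicing factors and RNA helicases were higher in 25 of 48 cases and lower in 7.

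Aminoacyl-tRNA synthetases, which charge tRNAs with amino acids, were higher in 13 of 16 cases and lower in 0, with a median of 0.81. Gars1 rose 3.87-fold, Vars1 3.13-fold, Yars1 2.80-fold and Lars1 2.50-fold. Of 38 endoplasmic reticulum stress genes and targets of ATF4, the factor of the amino acid and stress response, 25 were higher and 4 lower, with a median of 0.64 (0.60 with undetected members at their bound). Asparagine synthetase (Asns) read 4.56, 4.77, 4.68 and 4.74 in hepatocytes, detected on no array, and 8.53, 8.25, 8.02 and 8.16 in constructs, at least 8.38-fold higher (adjusted p = 3.78e-12). The serine synthesis enzymes Phgdh and Psph rose by 4.32 and 1.24 on the log2 scale and the amino acid transporter chain Slc3a2 by 2.28. Derl3, a channel component that removes misfolded proteins from the endoplasmic reticulum, rose at least 31.9-fold and was detected on 1 of 4 hepatocyte arrays. Ddit3, the stress factor CHOP, overlapped between the groups at 10.25 to 11.10 and 10.54 to 10.92 and was not called.

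Heat shock proteins and chaperonins were higher in 20 of 28 cases and lower in 1, with a median of 0.69. Cryab, a small heat shock protein, read 5.54, 4.98, 5.62 and 4.84 in hepatocytes and 11.22, 10.71, 11.19 and 11.38 in constructs, at least 53.9-fold higher (adjusted p = 2.58e-12), with 2 of 4 hepatocyte arrays detecting it. The subunits Cct7 and Cct2 of the chaperonin that folds actin and tubulin rose 2.37-fold and 2.15-fold. Of 42 proteasome subunits, 30 were higher and 7 lower, with a median of 0.42, with Psmb1 higher by 1.80-fold and Psmd2 by 1.75-fold. Targets of NRF2, the regulator of antioxidant genes, were higher in 20 of 36 cases and lower in 11. Carbonyl reductase (Cbr1) rose 7.19-fold and the glutathione peroxidase Gpx2 4.32-fold. Respiratory chain genes moved little, with 20 of 54 lower, 9 higher, a median of -0.08 and no member changed 2-fold.

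**Figure D3:**
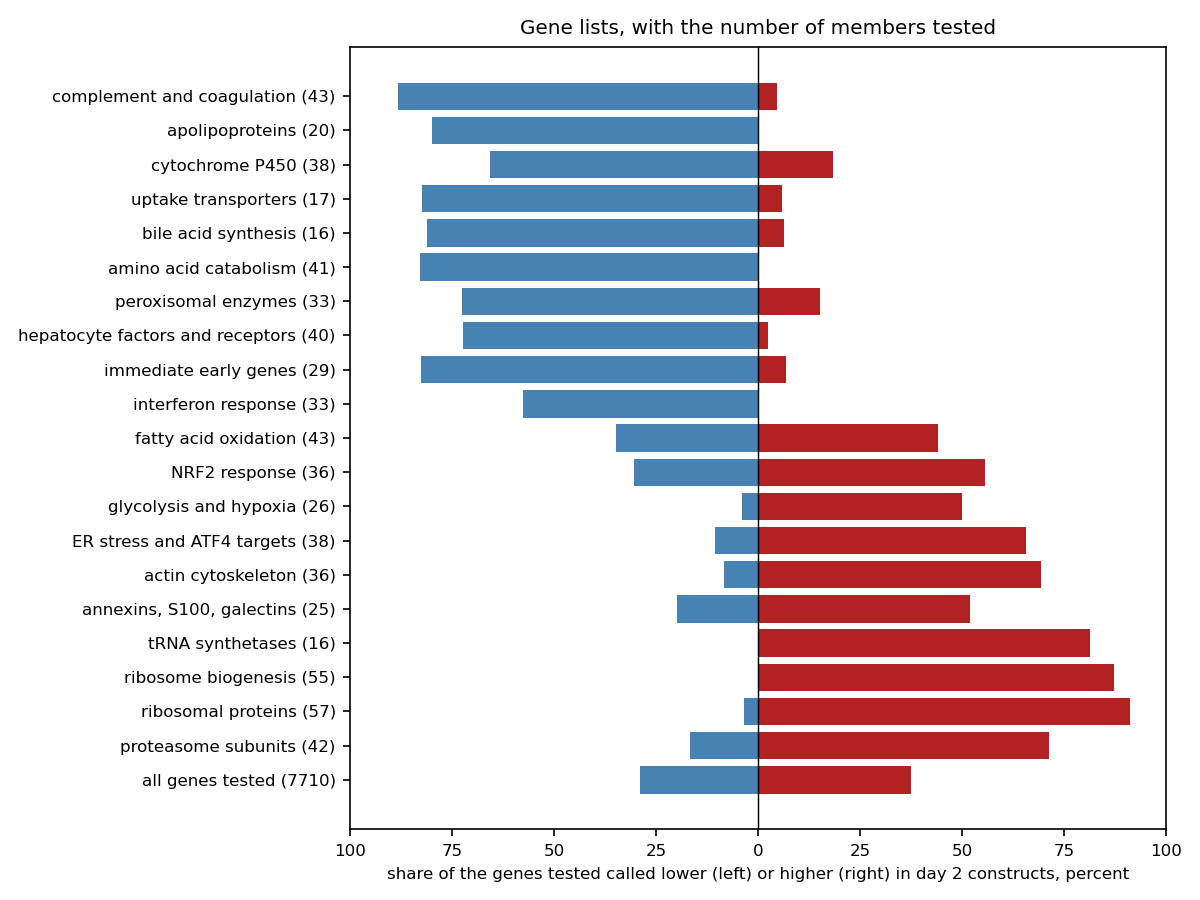
Share of the tested genes of 20 lists called lower (left) or higher (right) in day 2 constructs, in percent, with the number of genes tested in parentheses and all 7710 genes at the bottom. Complement and coagulation (38 of 43 lower) and ribosomal proteins (52 of 57 higher) lie at opposite ends, against 29.1% lower and 37.6% higher over all genes.

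Of 43 cell cycle and DNA replication genes, 18 were higher and 3 lower, with a median of 0.42 (0.36 with undetected members at their bound). The share of higher genes lay near the 37.6% of all genes tested, and that of lower genes below the 29.1%. Ccng1, a target of the damage-sensing factor p53, read 8.64, 8.55, 8.63 and 8.87 in hepatocytes and 11.70, 11.45, 11.86 and 11.53 in constructs, 7.79-fold higher (adjusted p = 5.22e-11). Mdm2, the ligase that degrades p53, rose 2.78-fold, and the cell cycle inhibitor Cdkn1a, chosen after its values were seen, 3.35-fold. Of the genes that copy DNA, Mcm3 was at least 1.47-fold higher and Rrm2, which makes deoxynucleotides, was detected on 1 of 4 hepatocyte and 3 of 6 day 2 arrays and was not called. Cell death regulators were higher in 19 of 37 cases and lower in 9. Rises were found for Bak1, which permeabilizes mitochondria (9.20-fold), its antagonist Bcl2l1 (3.80-fold) and Hrk, which promotes death (at least 4.08-fold), and a fall for Bmf, of the same class as Hrk (at least 9.81-fold). Genes that promote and genes that oppose death were thus both among those that rose.

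The cell type named by the labels was checked against defining markers. Of 11 hepatocyte markers measured, 10 were detected on every array of both groups and the other, Apob, on none. Their summed linear level was 178600 to 189700 in hepatocytes and 126500 to 142600 in constructs, with 6 of 10 lower and 0 higher. Of these probes, 6 lay within 0.5 of the ceiling in hepatocytes and dominate the sum, and without them it was 13500 to 17240 and 8185 to 12190. The asialoglycoprotein receptor chain Asgr1 was 12.47 to 12.89 in hepatocytes and 12.54 to 13.26 in constructs and was not called, except as higher without day 2 construct 3 (adjusted p = 0.0270), and its partner Asgr2 fell 4.69-fold. In bulk samples such as these, fewer cells of a type and less RNA per cell cannot be told apart.

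Markers of macrophages, endothelium and stellate cells were mostly lower in the constructs. Blood cell markers lay near background in both groups, and of the cholangiocyte markers only Epcam was detected. For Kupffer cells and macrophages, 7 of 8 tested markers were lower and the summed level was 2345 to 2808 in hepatocytes and 1293 to 1505 in constructs, where 7 of 11 were detected on no array. Without Cd14, which was not called and made up most of the day 2 sum, it was 1286 to 1925 and 265 to 446. Of the lower markers, Marco, Aif1, Tyrobp and Cd74 were detected on no day 2 array and passed the detection filter only through the hepatocytes. Such markers could come out lower or uncalled, but not higher. Aif1 read 8.36, 9.04, 8.51 and 8.99 in hepatocytes and was undetected on day 2, at least 13-fold lower, and the complement component C1qa fell 6.17-fold. Cd14, which hepatocytes also express, ranged from 9.79 to 10.09 and from 9.94 to 10.11 and was not called. For sinusoidal endothelium, 4 of 4 tested markers were lower and the sum was 1077 to 1720 against 238 to 292. The hyaluronan receptor Lyve1, detected on 1 of 6 day 2 arrays, fell at least 12.6-fold. Lyve1 and Oit3, the latter detected on no day 2 array, also passed the filter only through the hepatocytes.

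For stellate cells and fibroblasts, 3 of 4 were lower, of which Col1a2 and Col3a1 were no longer called without day 2 construct 3 (adjusted p = 0.170 and 0.0556). Col3a1, detected on no day 2 array, passed the filter only through the hepatocytes. The sum was 876 to 1192 against 483 to 523, with Col1a1, Dcn and Pdgfra undetected on every array of both groups. Ecm1 fell 6.60-fold. Dermatopontin (Dpt), a matrix protein of the wider fibroblast list, fell 16.9-fold from a mean of 12.88, but it was no lower in the isolated cells than in cadaveric liver (12.36 ± 0.86), whereas Ecm1 was (8.40 and 11.14). The cholangiocyte markers Krt19, Krt7 and Spp1 were undetected on every array of both groups, and Epcam alone was measured, 1.62-fold higher (adjusted p = 0.00140). Blood cell markers summed to 195 to 206 and 184 to 214, with 0 of 3 called. They lay near background in both groups, so a fall could hardly be seen. Hbb had means of 5.48 and 5.06, beside 13.68 in cadaveric liver. In the wider blood cell list, 2 of 7 were lower and 0 higher. Levels of the other cell type markers moved with the results above, and their part in them was not tested.

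Levels at the later times are given beside those of day 2 without a test, since all construct comparisons share their samples. Slco1b2 read 7.26 ± 0.09 (SD, n = 4) at day 2, 6.40 ± 0.52 (n = 4) at day 15 and 7.05 ± 0.15 (n = 3) at day 28, Cyp1a2 7.81 ± 0.56, 7.34 ± 0.19 and 7.04 ± 1.02, and Fmo1 4.67 ± 0.18, 4.47 ± 0.04 and 4.40 ± 0.03. These 3 means stayed far below those of cadaveric liver (13.30, 13.07 and 10.78). Serpina6 read 9.46 ± 0.68, 6.57 ± 0.71 and 5.52 ± 0.35, lower at each later time.

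Other genes had day 2 means that were the lowest of the 5 groups. Ttr read 14.17 ± 0.25 at day 2, 14.84 ± 0.12 at day 15 and 14.76 ± 0.10 at day 28, Plg 10.68 ± 0.60, 11.88 ± 0.19 and 12.17 ± 0.35, and Pck1 8.48 ± 0.43, 10.07 ± 0.61 and 10.11 ± 0.33. Cxcl12 read 5.24 ± 0.27, 9.72 ± 1.70 and 12.69 ± 0.39, the last beside 12.53 in cadaveric liver. Among the increases, S100a11 read 9.67 ± 0.39 in cadaveric liver, 13.53 ± 0.13 at day 2, 14.40 ± 0.16 at day 15 and 14.27 ± 0.31 at day 28, so that the isolated hepatocytes, at 4.58 ± 0.23, had the lowest mean. Nhp2 read 12.30 ± 0.08 at day 2, the highest of its 5 means, and 11.12 ± 0.13 and 11.09 ± 0.06 later.

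**Figure D4:**
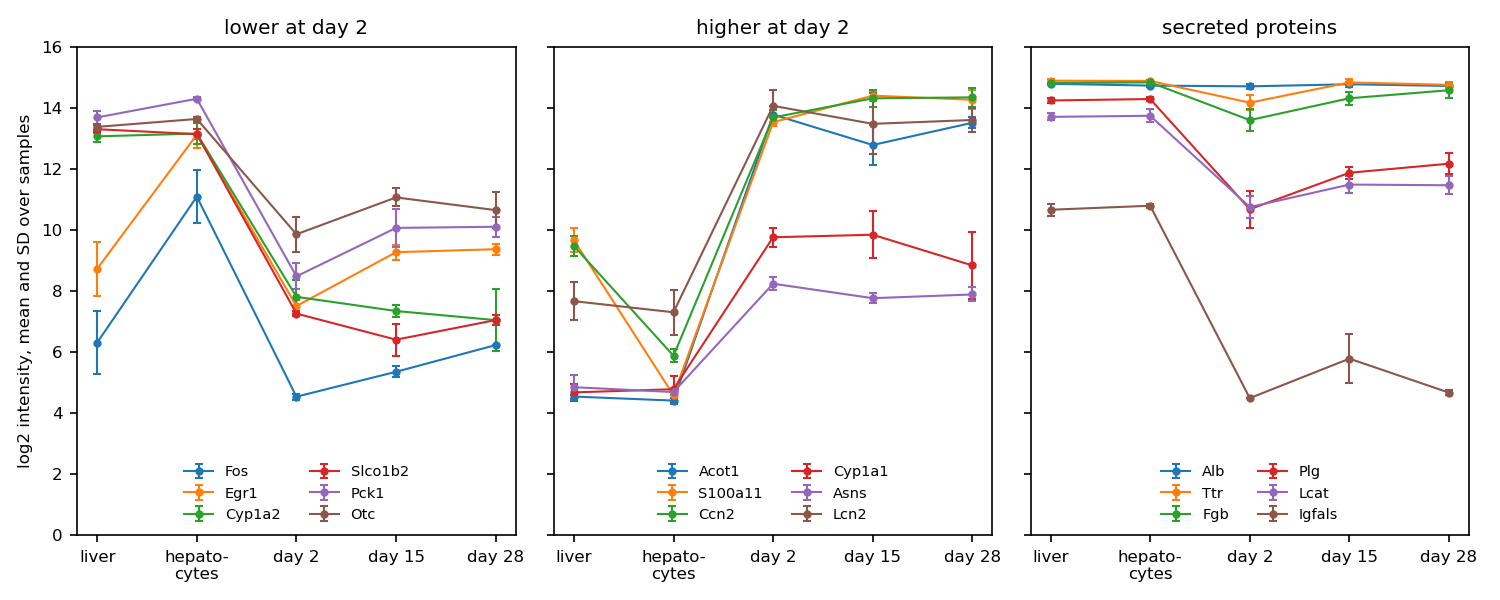
Mean log2 intensity with SD over samples of 18 genes in cadaveric liver, isolated hepatocytes and constructs at day 2, 15 and 28 (4 samples each, 3 at day 28). The left panel shows genes that were lower at day 2, the middle panel genes that were higher, and the right panel secreted proteins, among which albumin stays between 14.71 and 14.79 while Igfals drops from 10.80 to 4.49.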

How the data were processed

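RNA was hybridized to Illumina RatRef-12 BeadChips. The authors deposited a linear bead intensity for each probe with a detection p-value, and log2 values that they had background corrected, quantile normalized and log2 transformed with limma (version not given in the sources used here). For the test, the deposited log2 values were used, and the deposited detection p-values set the filter. Of 22523 probes, 13793 had a gene symbol in the platform annotation (13337 genes), 0 had several and 8730 had none, and 13752 matched RefSeq by gene ID. A probe was kept if its detection p-value was under 0.05 on at least 3 hepatocyte or 3 day 2 arrays, and where several probes of a gene were kept the brightest was used, leaving 7710 genes.

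Duplicate arrays were averaged and the 19 samples of 5 groups were fitted with lmFit and eBayes (R 4.3.3, limma 3.58.1; 14 residual degrees of freedom), with Benjamini-Hochberg adjustment over all genes and a threshold of 0.05. Albumin was also tested with an exact two-sided permutation test. The number of arrays limits the precision. A gene detected on no array of a group, or on up to 3 of 6 or 2 of 4, was given a bound ("at least"). Other genes not detected throughout were Abca5, Arnt, Cxcl16, Flna, Bak1, Bcl2l1, Gpx2 and Tfrc (3 of 4 hepatocyte arrays) and Cxcl12 and C1qa (5 of 6 day 2 arrays), with fold changes as fitted. Fold changes are on the deposited log2 scale, to which neqc adds an offset of 16, which understates changes of dim genes. The fitting step was checked on simulated data with known changes. The promoter stretches came from RefSeq (GRCr8). Figures were drawn with matplotlib 3.10.9.

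Named were the 15 largest increases and the 15 largest decreases without overlap between samples, up to 5 members of each of 50 gene lists with the lowest adjusted p and up to 3 with the highest p, and the defining cell markers; from these a selection is printed. The members and lists were chosen with earlier results of these data known. The labels number the replicates, but the deviations of same-numbered hepatocyte and day 2 samples correlated between -0.11 and 0.08, so the numbers were not used as pairs. Replicate numbers in the intensity table differed from those of the sample records for the 4 hepatocyte arrays and none of the day 2 arrays, within the group, and those of the records were used. Alternatives were neqc repeated from the intensities, no background correction, centring, other filters, 8 samples only, array weights, a robust trend, every probe, 1 array of each duplicate, the replicate number as a block and leaving out each sample. The 842 probes found only in the intensity table were left out, except in the background correction.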

Additional observations from a re-analysis of the deposited data

Results flagged for a closer look

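Over the 174 genes examined in both groups, 12 of 348 groups of 4 held a sample far from the other 3, with a gap beyond the critical value of Dixon's test; chance alone marks about 1 group in 20. In day 2 construct 2, Amdhd1 read 6.126 (others 5.672 to 5.738), Epcam 9.486 (9.784 to 9.812), Ghr 6.443 (6.828 to 6.848) and Pck1 7.837 (8.655 to 8.732). In day 2 construct 3, Apoe read 14.58 (others 14.69 to 14.72), Hrk 7.028 (7.243 to 7.267) and Mbl1 5.57 (6.094 to 6.156). In day 2 construct 4, Cyp2c13 read 6.684 (others 5.858 to 5.944) and Lars1 10.76 (10.53 to 10.57). In hepatocyte preparation 2, Acot1 read 4.553 (others 4.342 to 4.374, all undetected), Acot2 6.807 (6.094 to 6.214) and Nr1h4 10.35 (10.6 to 10.65).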

How the results depend on the processing

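The counts of differing genes stayed within 1.5 times those given under every alternative. The total of 5136 became 5134 with neqc repeated, 5092 without background correction, 5205 of 13337 genes without a filter, 4939 of 6991 with a stricter filter and 4970 with 8 samples only, and ranged from 4763 to 5003 when each sample was left out. Same-numbered samples did not deviate together, and with the replicate number as a block 4828 genes differed, of which 4699 were called before in the same direction; no named gene changed its call. Genes at least 2-fold different numbered 1388 without background correction against 1875.

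Differences near 0 changed sign in some settings and were called in none of them. Apoe became -0.0199 with the first array of each duplicate pair. Over the fits that left out 1 sample, albumin ranged from -0.0524 to 0.00955 (above 0 without day 2 construct 3, exact permutation p = 0.857), Cyp3a2 from -0.29 to 0.41, Ahr from -0.0343 to 0.225, Nr1i3 from -0.248 to 0.0195, Ddit3 from -0.0774 to 0.208, Rrm2 from -0.15 to 0.73 and Cd14 from -0.0564 to 0.0441. The call of Col1a2 was lost in most of these fits, at differences from -1.56 to -0.90, and that of Col3a1 likewise, from -1.37 to -1.16. The cause was not tested. Changes of dim genes and rises of genes near the ceiling are limited by the range of the values.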

Other observations

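Other lists are given here beside the shares over all genes tested, 29.1% lower and 37.6% higher. Of 22 genes known to respond to glucocorticoids or insulin, both present in the medium of the constructs, 12 were lower and 5 higher, with a median of -0.85. Of 30 genes of metallothioneins, iron and heme, 8 were lower and 8 higher, and the transferrin receptor (Tfrc), which imports iron, rose 2.46-fold. Lysosomal enzymes were split, with 16 of 38 lower and 14 higher. Of 10 genes of the wider cholangiocyte and progenitor list, 3 were higher and 3 lower. This list and that of metallothioneins, iron and heme lay near or below the shares over all genes.

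Among 2943 probes without a gene name that passed the same filter, 996 were higher and 702 lower. Of the 161 genes with more than 1 probe kept, 6 had probes called in opposite directions (Actr1a, Baz2a, Cep295, Gpr89b, Hltf and U2surp), so the direction of these genes depends on the probe.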
